A study of Danio rerio with 19 samples.

Results

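The 360 genes described here were higher in the uninjured tail fin of *yap1* Crispant zebrafish larvae than in that of *wwtr1* Crispants or wild type (WT). They were selected from 32520 genes on the uninjured libraries alone, by CPM, the read count of a gene scaled to a library total of 1000000 counts. A gene entered when its mean in uninjured *yap1* Crispants was at least 2 CPM, at least 3 times the mean in uninjured WT and at least 2 times the mean in uninjured *wwtr1* Crispants, and when its lowest *yap1* library lay above the highest of the *wwtr1* and WT libraries. *wwtr1* itself (ENSDARG00000067719) and *cyr61* (ENSDARG00000023062) also met these criteria but were left out by name. Of the 13376 genes that reached the level, 434 also passed the ratio to WT, 397 passed both ratios, and 37 of these failed on overlapping libraries. Their uninjured values chose them, so those values are given as a description, without a test. The rule used no value of the injured libraries, which carry the tests, though the set was chosen with earlier results of these data known.

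RNA was sequenced from tail fins of WIK strain larvae, pooled per library, in 19 libraries. The groups were injured *yap1* Crispants (4 libraries), injured *wwtr1* Crispants (3) and injured WT (3), followed by uninjured *yap1* Crispants (3), uninjured *wwtr1* Crispants (3) and uninjured WT (3). Injured larvae underwent the severe tail fin injury at 3 dpf (days post-fertilisation), which also removes the tip of the notochord, and all tissue was collected at 4 dpf, 24 h after injury in the injured groups. Crispants are first-generation larvae grown from eggs injected with Cas9 and guides, so each pool mixes cells that carry different alleles. The sources used here do not say whether WT larvae were injected, and the labels give no batch for any library.

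Yap1 and Taz (encoded by *wwtr1*) are transcriptional co-activators at the end of the Hippo kinase pathway. They bind Tead factors at DNA, and their best known targets, such as *ctgf* and *cyr61*, encode matricellular proteins. When the pathway is active, Lats kinases phosphorylate both proteins and keep them out of the nucleus. In fins, the mesenchyme lays down collagen and actinotrichia, the epidermis covers the wound after amputation, and a proliferating blastema forms beneath it.

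Library totals ran between 28081131 and 80837847 counts, and a count of 3, used as a floor, was worth 0.0371 to 0.107 CPM. Without injury, transcript level did not mark the targeted genes. *yap1* (ENSDARG00000068401) had between 142 and 260 CPM in uninjured *yap1* Crispants, against 128 to 272 CPM in uninjured WT. *wwtr1* had 0.572, 0.740 and 1.08 CPM in uninjured *wwtr1* Crispants, against 0.604, 0.671 and 1.13 CPM in uninjured WT. After injury *yap1* had 164, 289, 200 and 169 CPM in *yap1* Crispants. It had 321, 280 and 294 CPM in injured *wwtr1* Crispants and 335, 259 and 234 CPM in injured WT. Replicates 1, 3 and 4 of the *yap1* Crispants lay below all of these, and replicate 2 lay among them. With such overlap, neither transcript level can serve as a check of the label of each library. Defining markers of fin tissue were present, with the 10 epidermal markers summing to 60262 CPM or more in every library. WT replicate 3 stood apart from the other uninjured WT libraries for these genes, and without it the rule takes 410 genes, of which 359 are among the 360.

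In uninjured *yap1* Crispants the 360 genes ranged widely, with means between 2.05 and 36546 CPM and a median of 14.3 CPM. Their mean was 100 CPM or more for 33 genes, 10 to 100 CPM for 177 and under 10 CPM for 150. The median ratio was 5.06 over WT (highest 25.1, for *AXL*) and 4.07 over *wwtr1* Crispants (highest 20.6). The median CPM over the genes was 13.8, 16.6 and 11.7 in the *yap1* libraries, 2.75, 3.36 and 3.89 in the *wwtr1* libraries, and 1.74, 1.85 and 3.83 in the WT libraries. Replicates differed among themselves too: *yap1* replicate 2 was the highest *yap1* library for 201 of the 360 genes, and the highest library outside *yap1* was WT replicate 3 for 146 genes and *wwtr1* replicate 3 for 142. Genes just inside the thresholds were *ZDHHC14* (2.05 CPM) and *KLHL28* (2.11 CPM) for level, *GALNT2* (3.00) and *WDR7* (3.04) for the ratio to WT, *TMEM187* (2.01) and *INTS15* (2.02) for the ratio to *wwtr1*, and ENSDARG00000100052 (1.04) and *TMEM187* (1.04) for the lowest *yap1* library over the highest other library. Just outside lay *socs9* (1.98 CPM) and *DLGAP4* (1.96 CPM), *nufip1* (2.99) and *ank3b* (2.99), *UBE2Z* (1.93) and ENSDARG00000101800 (1.91), and *FGD1* (0.973) and *anpepla* (0.953).

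**Figure D1:**
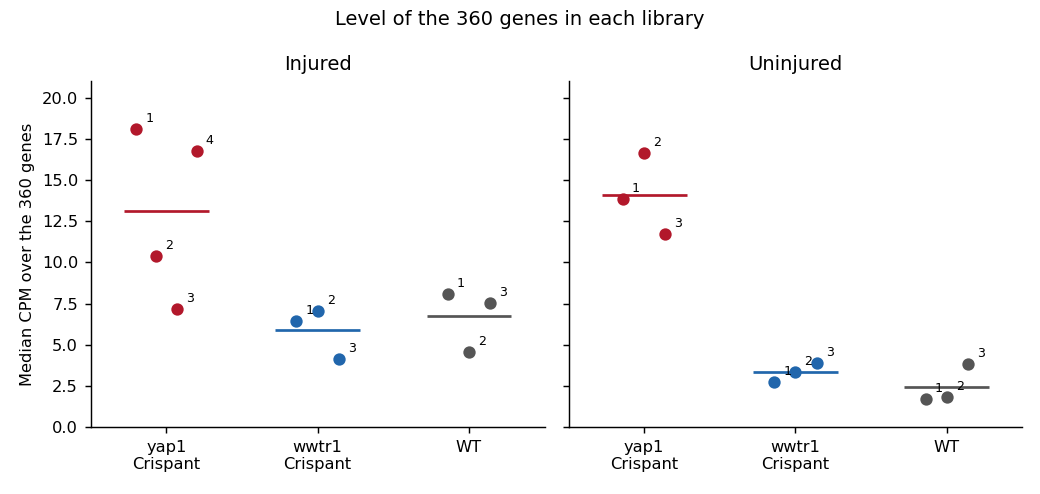
Median CPM over the 360 genes in each library (vertical axis, linear) by genotype, with injured libraries in the left panel and uninjured libraries in the right. Points are libraries with their replicate number, and bars are group means. Injured *yap1* Crispants spread between 7.17 and 18.1 CPM, with replicate 3 below the highest injured WT library (8.07 CPM), and uninjured *yap1* Crispants sit between 11.7 and 16.6 CPM.

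Genes for handling RNA formed the largest of 9 groups sorted by hand from known roles after the values were seen, with 39 genes (152 genes were sorted in all). *YBX1* (ENSDARG00000004757), which binds and packages mRNA, had 574.3, 877.1 and 479.2 CPM in the uninjured *yap1* Crispants, 60.2, 72.5 and 71.7 CPM in *wwtr1* Crispants and 69.3, 69.5 and 96.5 CPM in WT. *ncl* (nucleolin, a nucleolar protein of ribosome assembly) had 559, 389 and 305 CPM in *yap1* Crispants, 66.2, 97.7 and 69.2 CPM in *wwtr1* Crispants and 58.2, 95.8 and 187 CPM in WT. *CPSF6*, a subunit of the complex that chooses the cleavage site of mRNA 3′ ends, had 49.3, 86.9 and 65.1 CPM in *yap1* Crispants, 6.23, 4.59 and 4.73 CPM in *wwtr1* Crispants and 4.91, 3.89 and 4.58 CPM in WT. The higher level of these transcripts in the *yap1* libraries was required by the rule. The group also held the splicing factors *SF3A2*, *U2AF1*, *SNRPB* and both genes annotated *SRSF1*, and the hnRNP genes *hnrnpa0l*, *hnrnpa0b* and both genes annotated *HNRNPAB*. Of the 24 hnRNP genes at 2 CPM or more in uninjured *yap1* Crispants, 4 were among the 360, beside 360 of 13376 over all genes at that level. Other gene families, taken by symbol, had 2 of 6 (igfbp), 2 of 8 (mcm and socs, each) and 2 of 13 (srsf). The smarc and ints families each had 2 of 16, klhl 2 of 20 and rnf 6 of 52. Keratin genes had 0 of 16 and ribosomal protein genes 0 of 88.

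Nuclear regulators and signalling genes made up most of the other groups. *IRF2BP2* (ENSDARG00000004702), a transcriptional co-repressor, had the highest ratio over the higher of the other genotypes (18.8), with 76.0, 104 and 82.5 CPM in *yap1* Crispants, 2.07, 3.81 and 8.09 CPM in *wwtr1* Crispants and 0.176, 0.117 and 12.5 CPM in WT. Most of the WT mean of *IRF2BP2* came from WT replicate 3. *JUN*, a subunit of the AP-1 transcription factor, had 73.0, 109 and 49.4 CPM in *yap1* Crispants, 6.76, 7.17 and 10.4 CPM in *wwtr1* Crispants and 3.12, 5.72 and 14.8 CPM in WT. *FZD7*, a Wnt receptor, had 22.1, 19.6 and 12.4 CPM in *yap1* Crispants, 2.90, 4.37 and 6.66 CPM in *wwtr1* Crispants and 3.77, 3.92 and 4.47 CPM in WT. For both genes every *yap1* library was above every other library, as the rule required. *AXL*, a receptor tyrosine kinase and Yap target in mammalian cells, was low throughout, with 1.97, 6.09 and 2.58 CPM in *yap1* Crispants, 0.279, 0.359 and 0.605 CPM in *wwtr1* Crispants and 0.101, 0.151 and 0.173 CPM in WT. The Wnt group (9 genes) also held *VANGL2*, *ctnnb2*, *LRP6*, *dvl2*, *NOTUM* and both genes annotated *GSK3A*. The other groups were chromatin and transcription cofactors (18 genes), transcription factors (23), growth factor and cytokine signalling (17), ubiquitin ligases and deubiquitinases (21), actin and junction proteins (10) and DNA replication (3, with *MCM4* and *MCM7* of the replicative helicase).

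Matrix genes gave the highest levels. *col1a1a*, a chain of type I collagen, had 35769, 32910 and 40958 CPM in the uninjured *yap1* Crispants, 4958, 10977 and 17342 CPM in *wwtr1* Crispants and 5353, 3863 and 14365 CPM in WT. A second gene annotated *COL1A1* (ENSDARG00000035809) had 2053, 883 and 2125 CPM in *yap1* Crispants, 185, 667 and 636 CPM in *wwtr1* Crispants and 376, 192 and 776 CPM in WT. The partner chain *col1a2* did not share this pattern and was not among the 360 genes, with means of 1686 CPM in *yap1* Crispants, 2177 CPM in *wwtr1* Crispants and 2196 CPM in WT. *col9a3*, a chain of the type IX collagen of cartilage, had 349, 233 and 161 CPM in *yap1* Crispants, 44.6, 78.5 and 65.3 CPM in *wwtr1* Crispants and 39.8, 40.4 and 154 CPM in WT. Of 43 collagen genes at 2 CPM or more in uninjured *yap1* Crispants, 5 were among the 360 (360 of 13376 over all genes). The group of 12 also held *cnmd* (chondromodulin, a cartilage glycoprotein), *LOX*, which cross-links collagen, and the IGF-binding proteins *IGFBP2* and *IGFBP3*.

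The remaining genes chosen for level or ratio were of mixed function. At the top by level were *si:dkey-31n5.4* (1942, 2090 and 2826 CPM in uninjured *yap1* Crispants), *PRKAR2A*, a regulatory subunit of protein kinase A (263, 303 and 306 CPM), and *srebf2*, the sterol-responsive transcription factor (155, 241 and 330 CPM). WT reached at most 673, 79.3 and 88.3 CPM for these genes. By ratio, the list went on with *SF3A2* (15.4), ENSDARG00000098983 (15.4), the zinc transporter gene *slc30a6* (15.1), the deubiquitinase gene *ATXN3* (14.5), ENSDARG00000112811 (14.2), *PDHX*, a component of the pyruvate dehydrogenase complex (12.9), ENSDARG00000045914 (12.8) and *TAB1*, an activator of the kinase TAK1 (12.7). Of the 360 genes, 249 could be placed by symbol on the RefSeq gene order, on 25 chromosomes with 6 to 17 genes each. On that order 18 pairs were direct neighbours, among them *hnrnpa0b* and *hnrnpa0l*, *TNFAIP3* and *OLIG3*, *PMEPA1* and *PCK1*, and *scaf11* and *ARID2*. Whether reads were counted by strand is not given in the sources used here. How far reads of overlapping neighbours, or of pairs that share a symbol, were counted apart was not checked.

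In the injured fin the genes were still higher in *yap1* Crispants by mean, with smaller ratios. The rule required high ratios in the uninjured libraries only, so ratios in any other libraries would tend to be smaller. Whether injury narrowed the difference was not tested. The median ratio of mean CPM was 1.77 over injured WT and 2.14 over injured *wwtr1* Crispants, and injured *yap1* Crispants had the higher mean for 347 and 344 of the 360 genes. In the fit given below, 347 and 350 of the 359 genes tested had a log2 fold change above 0. Over all genes tested the shares were 50.8% and 50.2%. A ratio to WT of 3 or more was found for 51 genes and of 2 or more for 133, counts not taken over all genes. The median CPM over the genes was 18.1, 10.4, 7.17 and 16.7 in injured *yap1* Crispants, 6.45, 7.05 and 4.16 in injured *wwtr1* Crispants and 8.07, 4.56 and 7.55 in injured WT. The *yap1* and WT libraries thus overlapped, since *yap1* replicate 3 lay below WT replicates 1 and 3. *yap1* replicate 3 was the lowest *yap1* library for 287 genes, and replicates 1 and 4 were the highest for 199 and 140. In bulk tissue, more cells of a type and more RNA per cell cannot be told apart.

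**Figure D2:**
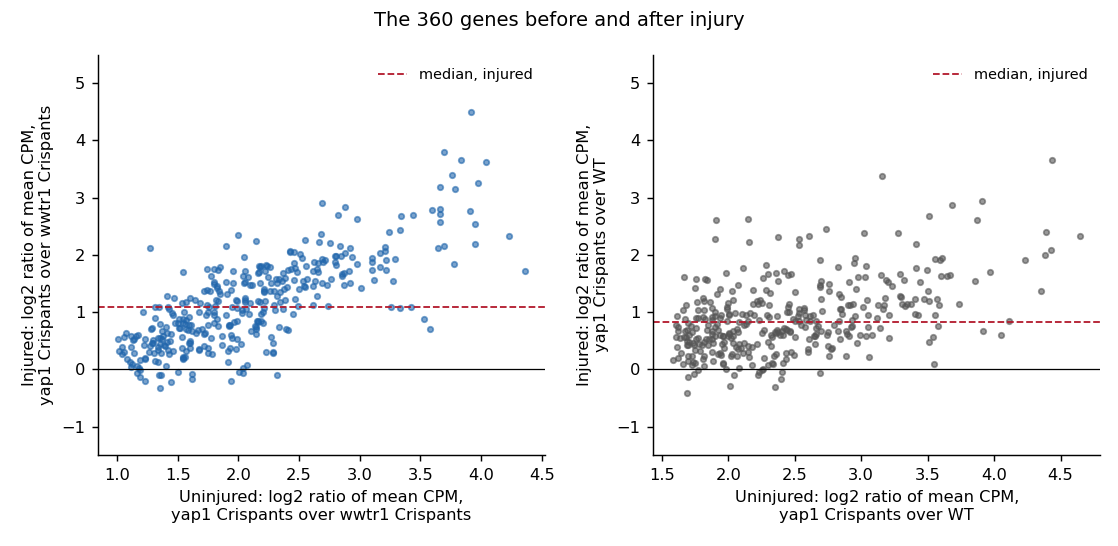
Each point is 1 of the 360 genes, with the log2 ratio of mean CPM in uninjured libraries on the horizontal axis and in injured libraries on the vertical axis, for *yap1* over *wwtr1* Crispants (left) and *yap1* Crispants over WT (right). The dashed line is the median injured ratio (2.14 left and 1.77 right before taking the logarithm). The horizontal axis starts where the rule cut, and most points lie above 0 on the vertical axis.

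The comparison of injured *yap1* Crispants with injured WT asked whether the genes still differed once the fin was regenerating. Genes counted as differentially expressed (DEGs) if their adjusted p lay below 0.05 with a log2 fold change beyond 1 in either direction. edgeR's quasi-likelihood test on the 10 injured libraries called no DEG among 19917 genes tested (0%), and the smallest adjusted p of any gene was 0.714. At an unadjusted p under 0.05 there were 1270 genes, and 147 of the 359 genes of the set that were tested were higher in *yap1* Crispants (40.9%), against 4.88% of all genes tested. None was lower at that level (1.5% of all genes). The median fitted log2 fold change was 0.82 (quartiles 0.49 and 1.26) for the 359 genes and 0.0066 for all genes tested. DESeq2 called 57 genes higher (0.282% of those with an adjusted p) and 1 lower, and 7 of the 57 were from the set: *OLIG3*, *FZD7*, *NR2F1*, *WASH6P*, *col5a3b*, *DTWD1* and *prkacab*. Without *yap1* replicate 4 DESeq2 called 75 higher, 1 of them from the set. The count of 147, beside 971 of 19917 over all genes, became 83 without *yap1* replicate 4 (1036 of 19798). Without WT replicate 2 it became 48 (503 of 20452). With the replicate number as a block, edgeR called 44 genes higher and 3 lower of 19917, and 1 was from the set (*col1a1a*, higher). Only *yap1* Crispants have a replicate 4, so that library carries no weight under the block.

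Over injured *wwtr1* Crispants the genes had a higher median log2 fold change than over injured WT. edgeR again called no DEG (0%), with a smallest adjusted p of 0.318, shared by 37 genes of the set. At an unadjusted p under 0.05 there were 798 genes, and 236 of the 359 genes were higher in *yap1* Crispants (65.7%), against 2.78% of all genes tested, with none lower (1.23% of all genes). The 236 made up 42.6% of all genes higher at that level. The median log2 fold change was 1.21 (quartiles 0.67 and 1.82) for the set and 0.0017 for all genes. DESeq2 called 122 genes higher (0.672% of those with an adjusted p) and 4 lower, of which 97 of the higher genes were from the set. Among the 97 were *hnrnpa0l*, *SRSF1* (ENSDARG00000057691), *HNRNPAB* (ENSDARG00000099865), *CTTN*, *CPSF6* and *col1a1a*, described below. Their adjusted p by DESeq2 were, in that order, 9.9e-07, 2.5e-05, 2.5e-05, 2.4e-05, 0.0024 and 0.0276. Without *yap1* replicate 4 DESeq2 called 86 higher, 69 of them from the set. The edgeR count of 236, beside 554 of 19917 over all genes, became 149 without *wwtr1* replicate 3 (372 of 20428).

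Injured *wwtr1* Crispants against injured WT went the other way by median. edgeR called no DEG (0%, smallest adjusted p 0.999) and had 780 genes at an unadjusted p under 0.05. None of the 359 genes was higher at that level (2.71% of all genes), and 45 were lower (1.21% of all genes). The count of 45 became 15 without WT replicate 1, 27 without WT replicate 3 and 18 without *wwtr1* replicate 3. It became 23 without *wwtr1* replicate 1, 71 without WT replicate 2 and 26 with all 19 libraries in one fit. All genes lower at that level numbered 240 in the main fit and, in the same order, 238, 120, 190, 142, 331 and 241. The median log2 fold change of the set was -0.30, with 83 genes above 0. DESeq2 called 8 genes higher and 2 lower (0.0102% of those with an adjusted p), and 1 of the set was called lower: *VIRMA*, a subunit of the mRNA methyltransferase complex, with a log2 fold change of -2.19 (adjusted p = 0.0329 by DESeq2).

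Every injured *yap1* library lay above every injured *wwtr1* and WT library for 17 of the 360 genes (4.72%), against 0.306% of all genes tested, and none lay below. Without *yap1* replicate 3 the count was 135 (1.64% of all genes tested), without WT replicate 1 it was 69 (0.959%), and without WT replicate 3 it was 26 (0.427%). *WASH6P* (ENSDARG00000063457), annotated as a WASH complex gene of endosomal actin, had 65.7, 22.3, 17.1 and 50.9 CPM in injured *yap1* Crispants, 14.1, 10.2 and 8.59 CPM in *wwtr1* Crispants and 14.7, 10.1 and 12.7 CPM in WT. *RAD23B*, a shuttle factor of nucleotide excision repair, had 28.6, 25.5, 20.03 and 40.0 CPM in injured *yap1* Crispants, 10.6, 11.4 and 8.11 CPM in *wwtr1* Crispants and 19.99, 7.70 and 9.45 CPM in WT. For *RAD23B* the lowest *yap1* library only just cleared WT replicate 1, and for *WASH6P* replicates 1 and 4 were well above the rest. Others of the 17 were the epithelial ubiquitin ligase gene *rnf183*, the histone methyltransferase family gene *KMT2E*, *COL14A1* and the transcription factor genes *BCL11A* and *SP6*.

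Genes for handling RNA were higher in injured *yap1* Crispants by median against both other genotypes. Of the 39, 35 were higher than in injured *wwtr1* Crispants and 22 higher than in injured WT at an unadjusted p under 0.05, with median log2 fold changes of 1.60 and 0.82. The whole set had 65.7% and 40.9% at that level, and all genes tested had 2.78% and 4.88%. *hnrnpa0l* had 527, 498, 351 and 630 CPM in injured *yap1* Crispants, 91.7, 146 and 99.6 CPM in *wwtr1* Crispants and 453, 154 and 279 CPM in WT. Its log2 fold change over *wwtr1* Crispants was 2.27 ± 0.35 (SE, unadjusted p = 3.4e-05, adjusted p = 0.318 by edgeR), the smallest p in the set, and over WT it was 0.81 ± 0.33 (adjusted p = 0.745). DESeq2 gave *hnrnpa0l* an adjusted p of 9.9e-07 over *wwtr1* Crispants. The *yap1* and *wwtr1* libraries did not overlap, and WT replicate 1 lay within the *yap1* range. *SRSF1* (ENSDARG00000057691) had 286, 282, 191 and 288 CPM in *yap1* Crispants, 69.1, 105 and 80.3 CPM in *wwtr1* Crispants and 251, 101 and 135 CPM in WT, the same arrangement. *HNRNPAB* (ENSDARG00000099865) had 439, 336, 230 and 411 CPM in *yap1* Crispants, 79.7, 112 and 84.3 CPM in *wwtr1* Crispants and 345, 102 and 173 CPM in WT. *YBX1* had 619.7, 330.5, 190.6 and 1370 CPM in *yap1* Crispants, 112, 160 and 85.3 CPM in *wwtr1* Crispants and 224, 110 and 207 CPM in WT. *YBX1* was highest in *yap1* replicate 4, and its replicate 3 fell within the WT range.

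*CPSF6* showed the same spread, with 102, 33.9, 12.5 and 216 CPM in injured *yap1* Crispants, 6.94, 7.605 and 5.15 CPM in *wwtr1* Crispants and 19.6, 4.19 and 12.0 CPM in WT. Its log2 fold change was 3.98 ± 0.90 over *wwtr1* Crispants (adjusted p = 0.341) and 3.05 ± 0.85 over WT (adjusted p = 0.714, edgeR). The *yap1* and *wwtr1* libraries did not overlap, and *yap1* replicate 3 lay within the WT range. *CTTN* (cortactin, which binds branched actin) had 168, 141, 117 and 231 CPM in *yap1* Crispants, 45.5, 54.8 and 46.3 CPM in *wwtr1* Crispants and 131, 56.1 and 86.1 CPM in WT, where replicate 1 again overlapped the *yap1* range. The unnamed gene ENSDARG00000102078 had 7.62, 8.24, 7.83 and 10.0 CPM in *yap1* Crispants, 1.71, 3.42 and 2.12 CPM in *wwtr1* Crispants and 6.71, 3.88 and 5.49 CPM in WT, with no overlap and close *yap1* replicates.

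The 5 smallest p against WT in the set were those of *WASH6P*, *FZD7*, *OLIG3*, *RAD23B* and *NR2F1*. *FZD7* had 30.3, 8.24, 5.53 and 14.7 CPM in injured *yap1* Crispants, 6.55, 6.64 and 2.22 CPM in *wwtr1* Crispants and 4.68, 1.71 and 3.08 CPM in WT, so that *yap1* and WT did not overlap. Its log2 fold change over WT was 2.22 ± 0.58 (unadjusted p = 0.0024, adjusted p = 0.714, edgeR). *OLIG3*, a bHLH transcription factor known from dorsal neural progenitors, had 6.26, 0.890, 0.609 and 6.32 CPM in *yap1* Crispants, 0.570, 0.817 and 0.691 CPM in *wwtr1* Crispants and 0.534, 0.109 and 0.376 CPM in WT. *NR2F1*, an orphan nuclear receptor, had 39.2, 8.29, 7.07 and 9.92 CPM in *yap1* Crispants, 7.44, 7.11 and 1.30 CPM in *wwtr1* Crispants and 4.17, 1.20 and 2.56 CPM in WT. All *yap1* libraries were above all WT libraries for *OLIG3* and *NR2F1*, while 1 or 2 *yap1* libraries carried most of each mean. *JUN* had 108, 54.2, 23.3 and 62.8 CPM in *yap1* Crispants, 36.8, 34.9 and 15.3 CPM in *wwtr1* Crispants and 35.0, 17.0 and 25.4 CPM in WT, with replicate 3 inside both other ranges. *AXL* had 5.40, 1.73, 0.318 and 5.30 CPM in *yap1* Crispants, 1.60, 0.793 and 0.461 CPM in *wwtr1* Crispants and 1.03, 0.533 and 0.351 CPM in WT, with replicate 3 the lowest of all.

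Matrix genes were also higher in injured *yap1* Crispants by median, with log2 fold changes of 1.33 over *wwtr1* Crispants and 1.09 over WT for the 12 genes, 9 and 7 of them at an unadjusted p under 0.05 (65.7% and 40.9% over the whole set, 2.78% and 4.88% over all genes tested). *col1a1a* had 23697, 9309, 8100 and 6163 CPM in injured *yap1* Crispants, 5707, 4639 and 3348 CPM in *wwtr1* Crispants and 7530.5, 3644 and 4304 CPM in WT. Its log2 fold change was 1.43 ± 0.39 over *wwtr1* Crispants (adjusted p = 0.577) and 1.17 ± 0.39 over WT (adjusted p = 0.714, edgeR). Without *yap1* replicate 1 the log2 fold changes of *col1a1a* were 0.93 over *wwtr1* Crispants and 0.68 over WT. *col1a1a* was highest in *yap1* replicate 1 and lowest in replicate 4, the library in which *YBX1* was highest. *col9a3* had 114, 98.9, 58.9 and 12.9 CPM in *yap1* Crispants, 36.1, 43.1 and 12.8 CPM in *wwtr1* Crispants and 50.5, 6.48 and 12.8 CPM in WT, where replicate 4 again lay with the other genotypes.

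**Figure D3:**
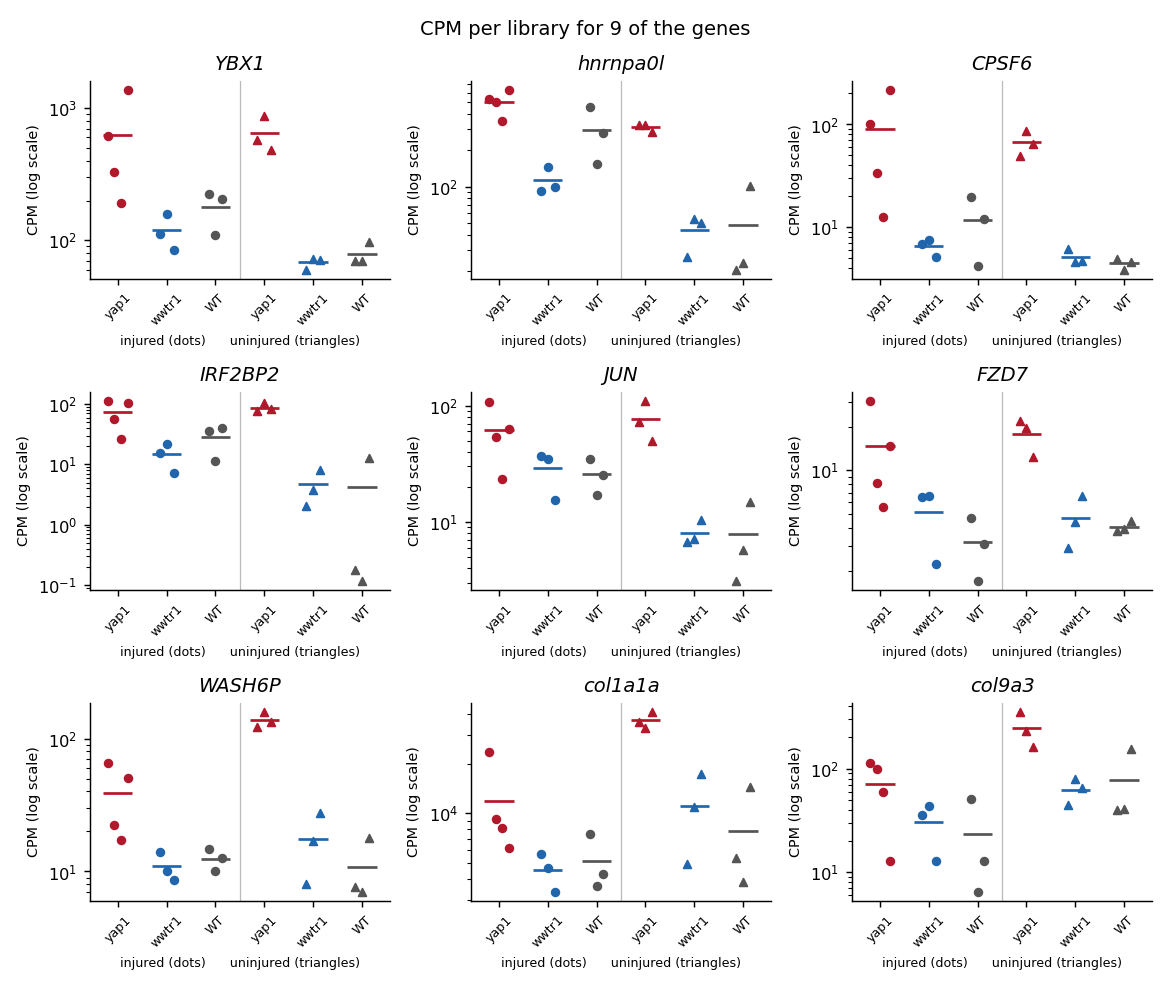
CPM per library (log scale) for 9 of the genes, with injured libraries as dots on the left of each panel and uninjured libraries as triangles on the right, in the order *yap1* Crispants, *wwtr1* Crispants and WT. Horizontal bars are group means. The injured *yap1* libraries spread widely for *CPSF6* (12.5 to 216 CPM) and narrowly for *hnrnpa0l* (351 to 630 CPM), while *col1a1a* is lower in injured than in uninjured *yap1* libraries.

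Between injured and uninjured fins the levels moved least in *yap1* Crispants by median, given here without a test because the uninjured means chose the genes and low WT levels were part of the choice. In *yap1* Crispants the mean was higher in injured than in uninjured fins for 163 of the 360 genes, with a median ratio of 0.958, against 1.24 over all genes tested. In *wwtr1* Crispants it was higher for 325 genes (median ratio 1.87, against 1.27 over all genes). In WT it was higher for 339 genes (median ratio 2.90, against 1.097 over all genes). A ratio of 2 or more was found for 17 genes in *yap1* Crispants, 152 in *wwtr1* Crispants and 269 in WT, counts not taken over all genes. The rule required uninjured *yap1* means at least 3 times those of WT. That favours a larger injury ratio in WT, so these counts are no separate result. For 35 genes, among them *SOCS3*, *ACP5*, *MCM4*, *SRSF1* and *SMARCE1*, the injured WT mean was at or above the uninjured *yap1* mean.

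Within that pattern the groups differed. Of the 39 genes for handling RNA, 30 were higher in injured than uninjured fins in *yap1* Crispants (median ratio 1.23) and 39 in WT (median ratio 3.08). Of the 12 matrix genes, 3 were higher after injury in *yap1* Crispants (median ratio 0.353) and 6 in WT (median ratio 0.962). *SOCS3*, the feedback inhibitor of cytokine receptor signalling, had 412, 369, 275 and 367 CPM in *yap1* Crispants after injury, against 16.6, 42.7 and 82.2 CPM without injury. In WT *SOCS3* had 376, 123 and 204 CPM after injury, against 1.46, 2.97 and 4.11 CPM without injury. The injured ranges overlapped, and the uninjured ranges did not, as the rule required. *ACP5*, the tartrate-resistant acid phosphatase of osteoclasts and macrophages, had 128, 150, 68.1 and 376 CPM in *yap1* Crispants after injury, against 4.01, 2.15 and 3.22 CPM without injury. In WT *ACP5* had 188, 184 and 233 CPM after injury, against 0.277, 0.704 and 0.804 CPM without injury, again with overlapping injured ranges. *LOX* went the other way, with 6.78, 2.13, 2.01 and 3.37 CPM in injured *yap1* Crispants, against 30.6, 48.9 and 18.2 CPM in uninjured *yap1* Crispants. In WT *LOX* had 2.28, 0.561 and 0.752 CPM after injury, against 10.6, 8.40 and 8.56 CPM without injury. *PCK1*, the rate-limiting enzyme of gluconeogenesis, had 0.162, 0.0234, 0.132 and 0 CPM in injured *yap1* Crispants, against 2.51, 3.45 and 3.13 CPM in uninjured *yap1* Crispants, and was the gene too low to test after injury.

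**Figure D4:**
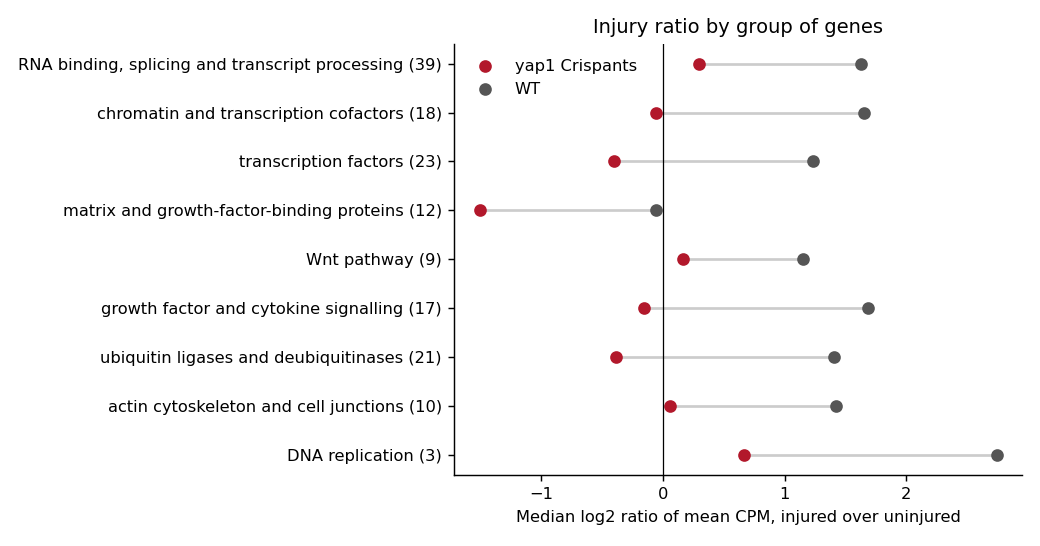
Median log2 ratio of mean CPM, injured over uninjured, for 9 groups of the genes (group size in parentheses), in *yap1* Crispants and in WT. In every group the *yap1* point lies left of the WT point, as in RNA handling (median ratios 1.23 and 3.08 before taking the logarithm), and the matrix group is lowest in both genotypes (0.353 and 0.962). The rule favours this order, since it required uninjured *yap1* means at least 3 times those of WT. The groups were sorted by hand after the values were seen.

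Other genes of the pathway and markers of other cells were read from 18 fixed lists, of which 141 of 196 genes were matched by name or ID. Of the matched genes, 3 were among the 360 (*AXL*, *JUN* and *col1a1a*). Unmatched genes, such as *col1a1b*, *socs3a* and *socs3b*, were not followed under other symbols. The 360 hold genes annotated *COL1A1* and *SOCS3*, so 3 may be too low a count. Since the main edgeR fit called no gene at all in either *yap1* comparison, it called none from the lists. With the replicate block edgeR called *col1a1a* higher than in injured WT (log2 fold change 1.26, adjusted p = 0.0442 by edgeR). Listed genes outside the set were not followed under the block. DESeq2 called the listed gene *col1a1a* higher than in injured *wwtr1* Crispants (log2 fold change 1.43, adjusted p = 0.0276 by DESeq2). Of 17 Hippo pathway genes and targets, 3 were higher than in injured WT at an unadjusted p under 0.05 (4.88% of all genes) and none lower. The 3 were *wwtr1*, *AXL* and *cyr61*, which all met the criteria of the rule in uninjured fins, so they are no separate result. Against injured *wwtr1* Crispants 4 were higher (the same genes and *lats1*; 2.78% of all genes) and none lower. *cyr61* had 89.1, 23.9, 13.8 and 85.7 CPM in injured *yap1* Crispants, 29.1, 21.6 and 7.16 CPM in *wwtr1* Crispants and 21.5, 11.4 and 9.40 CPM in WT, with *yap1* replicates 1 and 4 high. The related target *ctgfa* overlapped between groups, with 21.2 to 62.6 CPM in injured *yap1* Crispants, against 20.2 to 42.0 CPM in injured WT. *lats1*, a Hippo kinase gene, had 22.6, 18.2, 14.6 and 46.0 CPM in injured *yap1* Crispants, 11.4, 17.1 and 12.9 CPM in *wwtr1* Crispants and 11.3, 10.9 and 20.3 CPM in WT, so that the groups overlapped (unadjusted p = 0.0375 over *wwtr1* Crispants and 0.0655 over WT, edgeR).

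Some markers of the nervous system and the notochord were higher than in injured WT at an unadjusted p under 0.05. Of 8 nervous system markers, 4 were at that level (*elavl3*, *elavl4*, *gfap* and *olig2*), and the list summed to 19.2 to 37.8 CPM in injured *yap1* Crispants and 8.22 to 20.3 CPM in injured WT. None of the 8 was higher than in injured *wwtr1* Crispants, where the sum was 11.2 to 48.0 CPM. Of 5 notochord markers tested, *tbxta* and *col9a2* were higher than in WT and none differed from injured *wwtr1* Crispants at that level. The list summed to 2331 to 3042 CPM in injured *yap1* Crispants and 2422 to 2832 CPM in injured WT, mostly from *krt18a.1* (means 2302 and 2432 CPM). In the same order, means were 132 and 60.3 CPM for *tbxta*, 133 and 50.2 CPM for *col9a2* and 34.3 and 15.1 CPM for *col8a1a*. For *cav1* they were 59.1 and 65.6 CPM. Of 3 neutrophil and macrophage markers, *coro1a* was lower than in both other genotypes and *lyz* lower than in *wwtr1* Crispants, with sums of 67.3 to 122 CPM in injured *yap1* Crispants, 95.4 to 136 CPM in injured *wwtr1* Crispants and 89.1 to 130 CPM in injured WT. Of 5 ionocyte and neuromast markers, *trpv6* and *ca15a* were lower than in WT and *foxi3a* higher than in *wwtr1* Crispants, with sums of 137 to 255 CPM in injured *yap1* Crispants, 240 to 308 CPM in injured *wwtr1* Crispants and 206 to 250 CPM in injured WT. One pigment cell marker of 6 (*pnp4a*) and, beside *col1a1a*, 1 fibroblast and matrix gene of 7 (*aldh1a2*) were higher than in WT. Of 8 skeletal muscle markers, none passed that level against WT, and the sums were 211 to 1098 CPM in injured *yap1* Crispants and 136 to 471 CPM in injured WT. Epidermal markers summed to 60262 to 93601 CPM in injured *yap1* Crispants and 66612 to 107285 CPM in injured WT. In the uninjured fins the nervous system sum was 17.5 to 51.3 CPM in *yap1* Crispants and 46.5 to 59.8 CPM in WT. The part of these cells in the levels of the 360 genes was not tested.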

How the data were processed

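Total RNA from pooled tail fins was made into libraries with a low-input kit. Per the labels and the methods of the study, the authors used Trim Galore for trimming and BWA-MEM for alignment to GRCz11, handled alignments with SAMtools and counted reads per Ensembl gene with HTSeq. Versions and the strand setting are not given in the sources used here. The deposited table holds raw counts for 32520 genes in 19 libraries of 3 genotypes, injured or uninjured.

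Members were taken by the rule given in the report, from CPM of the column sums. The members, lists and rule for named genes were chosen with earlier results of these data known. Members are named when they are among the 10 highest by ratio over the higher of the other genotypes (means under 3 counts per library set to that floor), the 10 highest by uninjured *yap1* level, on a fixed list, called in an injured comparison, among the 5 smallest unadjusted p against injured WT or injured *wwtr1* Crispants, or the 2 nearest either side of a threshold. Other members named as examples of their group or for their injury ratio were chosen after their values were seen. Symbols came from a table of gene IDs (29201 of 32520 IDs matched, 334 of the 360 members) and are printed in its spelling. Gene order came from RefSeq protein-coding genes of another assembly, GRCz12tu, so no coordinates are given.

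The injured comparisons were fitted on the 10 injured libraries in edgeR 4.0.16 (R 4.3.3) with filterByExpr, TMM and robust quasi-likelihood tests, with Benjamini-Hochberg adjustment over all genes tested. SE is the log2 fold change over the square root of F. The code was tested on simulated data with known changes. Alternatives were RLE or column sums, no filter, all 19 libraries, DESeq2 1.42.0, a replicate block, each library left out, and adjusted p alone. The count of members at an unadjusted p and DESeq2 without *yap1* replicate 4 were added after seeing the data. Replicates are labelled as biological. The lowest chi-square per degree of freedom between replicates was 40.3, so no library was counted as a duplicate.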

Additional observations from a re-analysis of the deposited data

Results flagged for a closer look

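Among 34 measures in the 4 injured *yap1* libraries (31 named genes and 3 summaries over the set), 4 had a library far from the other 3, with a gap, as a share of the whole range, above Dixon's critical value for 4 samples. Chance flags about 1 in 20, or 1.7 of 34. The gap was 0.921 of the range for *slc30a6*, with 5.76, 2.39, 1.22 and 58.8 CPM, and 0.915 for *TAB1*, with 1.15, 0.702, 0.503 and 8.10 CPM, both high in replicate 4. It was 0.911 for *NR2F1*, with replicate 1 high (39.2, 8.29, 7.07 and 9.92 CPM), and 0.941 for *SRSF1* (ENSDARG00000057691), with replicate 3 low (286, 282, 191 and 288 CPM). Over all 360 genes, 22 passed the same value, 12 of them through replicate 4, where chance flags about 18.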

How the results depend on the processing

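No gene was called by edgeR in the 3 injured comparisons under TMM, RLE, column sums, no filter, all 19 libraries, adjusted p alone or with any library left out. DESeq2 called 58, 126 and 10 genes (*yap1* against WT, *yap1* against *wwtr1*, *wwtr1* against WT), 7, 97 and 1 of them from the set, and without injured *yap1* replicate 4 it called 90, 90 and 34, with 1, 69 and 2 from the set. Same-numbered injured libraries deviated together with correlations of -0.0863 to 0.436, with 5 of 9 pairs over 0.1. Replicates numbered 1 gave 0.436, 0.216 and 0.185. These correlations do not settle whether the numbers mark pairs. The labels do not pair the libraries, so the main fit has no block. With a replicate block, *yap1* against WT gave 47 genes, 1 from the set (*col1a1a*, log2 fold change 1.26). Only injured *yap1* Crispants have a replicate 4, so the block takes that library out of the comparison. Of the set, 92 were higher at an unadjusted p under 0.05, against 147 in the main fit and 83 without *yap1* replicate 4. All genes higher at that level numbered 1621 of 19917, against 971 of 19917 and 1036 of 19798 in the same order. For *wwtr1* against WT the count of the set was 2 under the block and 1 with all 19 libraries, against 0. All genes higher there numbered 1420, 806 and 540. For *yap1* against *wwtr1* and for *wwtr1* against WT the block called no gene. The main fit had no call that the block could end or turn.

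With single libraries left out, the set's counts at an unadjusted p ran from 48 to 209 (*yap1* against WT) and 149 to 266 (*yap1* against *wwtr1*). For *wwtr1* against WT they ran from 0 to 3, with 15 to 71 lower. In the fits with 48 and 209, all genes higher numbered 503 and 1230. In those with 149 and 266 they numbered 372 and 771. The set's median log2 fold changes ran from 0.59 to 0.98, 0.95 to 1.40 and -0.48 to -0.13. Genes separated after injury ran from 17 to 135. The rule took 311 to 410 genes, 398 with TMM sizes and 277 at 5 CPM. For named genes no refit of 992 reversed a direction, and 22 became calls, 21 by DESeq2 and 1 under the block. Column sums moved the median of all genes to -0.093 for *yap1* against *wwtr1*. Promoter motifs were not analysed here.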
